A study of Mus musculus with 384 samples.

Results

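The genes described here were 8 imprinted genes, *Dlk1*, *Meg3*, *Rian*, and *Mirg* of chromosome 12 and *Peg3*, *Ndn*, *Magel2*, and *Snrpn* of chromosome 7. They were chosen by their symbols among the 47082 entries of the deposited count table, where the 8 symbols take up 11 entries, because *Dlk1*, *Meg3*, and *Rian* are each listed 2 times. Their levels were read in 209 of the 384 cells, those with at least 500000 reads counted on genes. The cells were single tdTomato+, propidium iodide-negative cells of the midbrain, dissected together with the hypothalamus, from 8 DAT-IRES-Cre;Ai9 mice of the C57BL6/J strain (3 female, 5 male, and 24–36 d old by the label of each cell). All mice carried both alleles and none was treated. In these mice Cre is expressed from the dopamine transporter gene and switches on tdTomato for good, so that a cell stays labeled even where it no longer expresses the transporter. Each mouse was captured in a Fluidigm C1 run of its own, and the mouse was the replicate throughout.

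Imprinted genes are expressed from only one of the parental copies, which are told apart by DNA methylation laid down in the germ line. In the *Dlk1*-*Meg3* domain, *Dlk1* is read from the paternal copy and encodes a Notch-related transmembrane protein, whereas the noncoding RNAs *Meg3*, *Rian*, and *Mirg* are read from the maternal copy and carry small RNAs, *Rian* the C/D box snoRNAs and *Mirg* a large group of microRNAs. *Peg3*, a zinc finger protein, *Ndn* (necdin) and *Magel2*, both MAGE family proteins, and *Snrpn*, a splicing protein, are read from the paternal copy, and *Ndn*, *Magel2*, and *Snrpn* lie in the region that is lost in Prader-Willi syndrome. The count table does not separate the parental alleles, so that only total levels were compared.

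In the RefSeq annotation of GRCm38.p6, *Dlk1* lies on chromosome 12 at 109452485–109463336, *Meg3* at 109540996–109571729, *Rian* at 109603945–109661716, and *Mirg* at 109734981–109749458, all on the plus strand. On chromosome 7, *Peg3* lies at 6703892–6730462 on the minus strand, *Snrpn* at 59982495–60450177 on the minus strand, *Ndn* at 62348277–62349928 on the plus strand, and its neighbor *Magel2* at 62376979–62381640 on the plus strand. The promoters of the 3 chromosome 7 genes whose levels are set side by side over cells, and that of *Meg3*, are shown from 250 bases before to 50 bases after the annotated start, from RefSeq (GRCm38.p6), 5′ to 3′ on the strand of the gene. Capitals mark TGCCGC on either strand, the core of the sequence that the imprinting factor ZFP57 recognizes when it is methylated.
Peg3, chr7:6730370-6730669, minus strand: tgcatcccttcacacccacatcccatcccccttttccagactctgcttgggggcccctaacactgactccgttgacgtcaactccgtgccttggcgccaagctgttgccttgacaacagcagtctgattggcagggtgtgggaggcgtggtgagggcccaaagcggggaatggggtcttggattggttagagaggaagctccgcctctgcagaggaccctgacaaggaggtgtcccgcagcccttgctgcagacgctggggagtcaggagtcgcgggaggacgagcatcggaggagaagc
Ndn, chr7:62348027-62348326, plus strand: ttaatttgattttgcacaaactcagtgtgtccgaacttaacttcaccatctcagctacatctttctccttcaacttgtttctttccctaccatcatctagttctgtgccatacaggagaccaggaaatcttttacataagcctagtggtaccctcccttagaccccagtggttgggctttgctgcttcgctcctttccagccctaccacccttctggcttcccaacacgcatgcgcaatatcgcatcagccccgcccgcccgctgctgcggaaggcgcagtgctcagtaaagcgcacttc
Magel2, chr7:62376729-62377028, plus strand: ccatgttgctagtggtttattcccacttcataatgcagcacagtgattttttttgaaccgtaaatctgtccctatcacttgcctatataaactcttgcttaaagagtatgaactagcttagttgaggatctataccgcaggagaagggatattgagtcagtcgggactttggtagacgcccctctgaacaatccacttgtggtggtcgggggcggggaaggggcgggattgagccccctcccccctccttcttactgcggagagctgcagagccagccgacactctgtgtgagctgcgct
Meg3, chr12:109540746-109541045, plus strand: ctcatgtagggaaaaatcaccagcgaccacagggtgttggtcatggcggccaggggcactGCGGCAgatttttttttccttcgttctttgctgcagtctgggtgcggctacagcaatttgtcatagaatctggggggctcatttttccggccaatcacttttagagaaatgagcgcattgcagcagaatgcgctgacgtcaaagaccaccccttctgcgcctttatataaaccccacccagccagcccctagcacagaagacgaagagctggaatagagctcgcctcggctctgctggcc
The *Peg3* and *Meg3* windows each held 13 CpG dinucleotides, that of *Ndn* 11, and that of *Magel2* 10, beside a median of 7 over the 32851 promoters of the table. The motif occurred 1 time in this window of *Meg3*, the first of its 2 annotated promoters, and in none of the other 3 shown, and 11.6% of all promoters of this length held it. Among promoters of the members that are not shown, that of *Snrpn* at chr7:60005150-60005449 also held it 1 time.

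The cells were checked first against markers. A median of 780500 reads per cell was counted on genes (range 500672–1544824), with a median of 9123 entries detected. *Th*, the rate-limiting enzyme of dopamine synthesis, was under 1000 CPM (reads of a gene scaled to a common total of reads on genes in each cell) in 28 cells, called Th-poor here, and at or above it in 181, called Th-rich. The nearest cells on either side of this limit had 757 and 1083 CPM. The 9 DA neuron markers had a median summed level of 15450 CPM in Th-rich cells (range 2153–33310) and 1985 CPM in Th-poor cells (range 14.7–4649). Summed markers of glia and vessels exceeded the 4 neuronal markers in 6 cells, all Th-poor and from 4 mice, and the Th-poor class therefore did not hold DA neurons alone. Among Th-poor cells, 5 of 5 endothelial and pericyte markers were at 0 in every cell, as were 2 of 5 microglial markers, and summed levels ranged from 0 to 94350 CPM for the 5 oligodendrocyte markers, 0–2077 CPM for the 4 of astrocytes, and 0–59.8 CPM for those of microglia. Of the Th-rich cells, 74 had at least 10 reads of *Aldh1a7* and 49 at least 10 reads of *Neurod6*. Cells with fewer reads, called negative here, could still hold some. From 1 to 9 reads were counted in 44 cells for *Aldh1a7* and in 9 for *Neurod6*. No 2 cells had identical counts, and none of the 384 index pairs was used in both lanes. Between the sexes, *Ddx3y*, *Eif2s3y*, *Kdm5d*, and *Uty*, all Y-linked, were higher in males and *Xist* was higher in females (edgeR quasi-likelihood test, adjusted p = 9.70e-05, 0.000903, 0.0439, 0.000903, and 0.00108), as labelled, and these were the only genes past the threshold.

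*Dlk1*, *Meg3*, and *Rian* had almost no reads in either of their entries, and their levels could not be read from this table. *Dlk1* had 2 reads in its first entry and 6 in its second over 209 cells, found in 4 cells with at most 5 reads in any. *Meg3*, which is among the most abundant long noncoding RNAs of neurons, had 5 and 6 reads in its 2 entries, in 7 cells with at most 4 reads in any. *Rian* had 0 reads in both entries, from which no limit on its level is drawn. All 384 cells together held 8 reads of *Dlk1* and 18 of *Meg3*.

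*Dlk1*, *Meg3*, and *Rian* lie in a stretch of doubled entries. From *Dlk1* to *Mir882* the table lists 35 successive entries, and all 35 appear a second time elsewhere in it. These held 7 reads in their first entries and 12 in their second, and 33 of 35 first entries were at 0. The imprinted coding gene *Rtl1*, within this stretch, had 0 reads. Of the entries listed once, upstream of *Dlk1* *Begain* had 6731 reads, *Wdr25* 3135, and *Wars* 23225, and downstream *Mirg* had 2159. Low counts were not limited to doubled entries: 2 of 7 entries listed once before *Dlk1* and 25 of 53 after *Mir882*, many of them microRNA genes, had 0 reads. Over the whole table, 64.1% of the 928 protein-coding symbols listed more than once had under 10 reads over the retained cells, compared with 27.5% of the 19888 listed once. During counting the authors left out any read that could belong to several genes. Whether this exclusion removed the reads of the doubled stretch was not tested. No correlation within the *Dlk1*-*Meg3* domain was computed for this reason, and *Dlk1*, *Meg3*, and *Rian* passed the filter on low counts in none of the tests below.

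**Figure D1:**
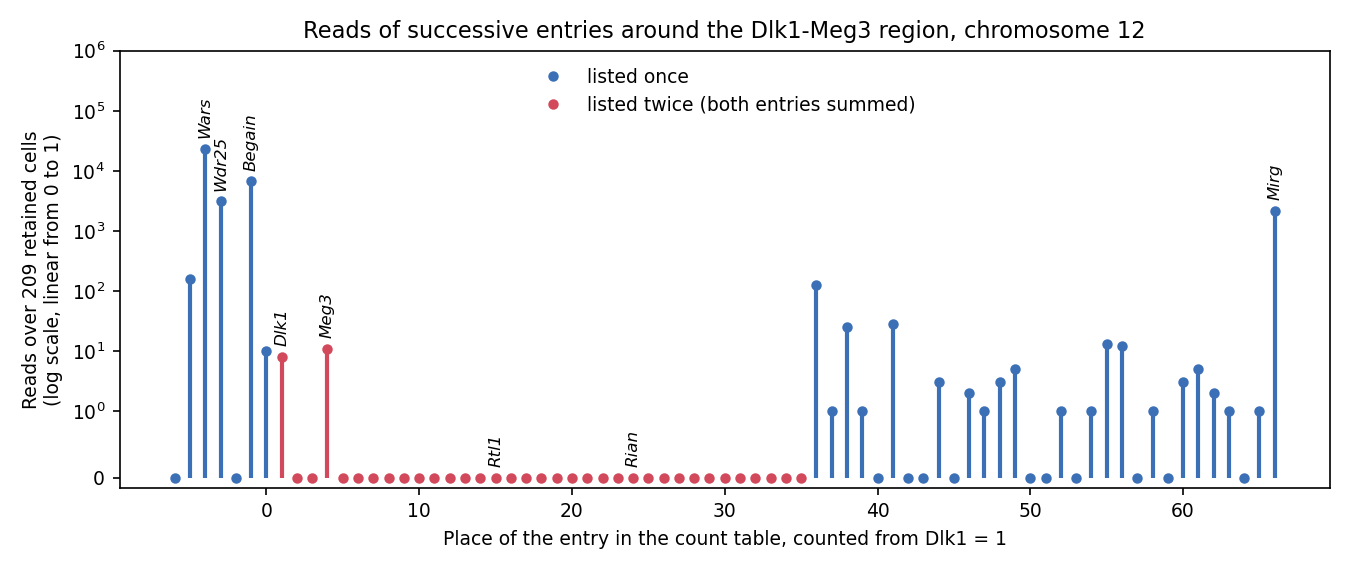
Reads over the 209 retained cells (vertical axis, log scale, linear between 0 and 1) for successive entries of the count table around *Dlk1* (horizontal axis, place in the table), blue where a symbol is listed once and red where it is listed 2 times, with both entries summed. The red run from *Dlk1* to *Mir882* holds 8 reads of *Dlk1*, 11 of *Meg3*, and otherwise 0. The nearest entries listed once, LOC102637046 before it and LOC102637727 after it, have 10 and 126. *Begain* and *Mirg*, farther out, have 6731 and 2159.

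Of the 5 other members, *Ndn* and *Peg3* were found in nearly every cell, *Mirg* and *Magel2* in some cells, and *Snrpn* at the edge of detection. *Ndn* had at least 10 reads in 209 of 209 cells (100%, exact 95% binomial interval over cells 98.3–100%, which like those below covers counting error only), with a median of 1126 CPM (range 23.9–3834). It was among the 485 entries, 1.89% of those with any read, that had a read in every cell, and its mean level of 1239 CPM ranked 72nd among all entries. *Peg3* had at least 10 reads in 206 cells (98.6%, 95.9–99.7%), with a median of 689 CPM and a highest value of 3689. From the 10th to the 90th percentile of cells, levels ranged over 4.03-fold for *Ndn* (540–2176 CPM) and 5.58-fold for *Peg3* (279–1556 CPM). Per kilobase of annotated exon (GENCODE M21), mean levels were 336 CPM for *Ndn*, 62.9 for *Peg3*, 3.28 for *Magel2*, 1.74 for *Mirg*, and 1.17 for *Snrpn*. For *Ndn* these exons add up to 3694 bases, whereas its RefSeq span is 1652 bases, so that its level per kilobase depends on the annotation and is lower here than with the RefSeq span. *Peg3os*, an antisense RNA annotated inside *Peg3* at 6706760–6707624, had 0 reads in all 384 cells, and the counting is not stated to have used strand.

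The cells lowest in *Ndn* and *Peg3* were examined one by one. Under 100 CPM of *Ndn* was found in 2 cells, and the lowest of these, at 23.9 CPM, also had only 6.64 CPM of *Peg3* and more reads of glial and vascular markers (1557 CPM) than of neuronal ones (423 CPM). The other, a Th-poor cell of mouse 1, had 96.4 CPM of *Ndn*, 274 CPM of *Peg3*, 1873 CPM of glial and vascular markers, and 18.6 CPM of neuronal ones. No read of *Peg3* was found in 2 cells. One was the Th-poor cell with the highest glial markers of all (94350 CPM), and the other a Th-rich cell with 3189 detected entries, the fewest among the retained cells. In the 6 cells with more glial and vascular than neuronal marker reads, the median was 369 CPM for *Ndn* (range 23.9–2065) and 416 CPM for *Peg3* (range 0–1399), compared with 1469 and 1460 CPM in the other 22 Th-poor cells. These are cells of 4 mice and no test was made.

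*Magel2* was uneven between cells. It had at least 10 reads in 53 cells (25.4%, 19.6–31.8%) and a read in 81, so that its median was 0 CPM, while its 90th percentile was 40.9 CPM and its highest value 318 CPM. The 10 cells with most reads held 49.1% of them, compared with 11.9% for *Ndn* and 14.4% for *Peg3*. *Mirg* was spread over more cells, with 30.7% of its reads in the 10 highest, a read in 162 cells, at least 10 reads in 57 (27.3%, 21.4–33.9%), a median of 5.47 CPM, and a highest value of 126 CPM. The share of cells with at least 10 reads of *Mirg* was 16.7% after each cell was thinned to 500000 reads. *Snrpn* had at least 10 reads in 13 cells (6.22%, 3.35–10.4%), or 2.39% after thinning. Its entry shares exons with *Snurf* (59982495–60005199), which had 0 reads in all 384 cells, and with reads on more than one gene left out its level is uncertain.

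*Mirg* spans 10 microRNA genes in RefSeq, with 19 mature microRNAs. Mature microRNAs are not captured by libraries made from polyadenylated RNA, and the counts of *Mirg* are those of the host transcript, again without reads that fell on a second gene. The 19 mature sequences have 18 different seeds (bases 2–8, in capitals), and those shown are the pair that share a seed and the 3p microRNA of *Mir377*, whose entry had the most reads among the microRNA genes inside *Mirg* (43 reads, against 39 for *Mir453*).
mmu-miR-453, chr12:109735669-109735692: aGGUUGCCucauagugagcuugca
mmu-miR-496a-5p, chr12:109739132-109739152: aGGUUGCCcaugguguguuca
mmu-miR-377-3p, chr12:109740553-109740574: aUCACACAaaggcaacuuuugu

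The members also varied between mice. With the reads of all retained cells of a mouse summed, *Ndn* was 2172 CPM in mouse 1, 1361 in mouse 2, 748 in mouse 3, 1422 in mouse 4, 1279 in mouse 5, 1027 in mouse 6, 1332 in mouse 7, and 1239 in mouse 8. Mouse 1 was the highest and mouse 3 the lowest, and the 6 others lay within 1027–1422 CPM. *Peg3* was 1227 CPM in mouse 1, 864 in mouse 2, 490 in mouse 3, 1390 in mouse 4, 707.5 in mouse 5, 922 in mouse 6, 948 in mouse 7, and 1018 in mouse 8. Mouse 3 was again the lowest, and the highest was mouse 4. Over the 8 mice the mean was 1322 ± 407 CPM for *Ndn* and 946 ± 281 CPM for *Peg3* (SD, n = 8).

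*Magel2* ranged over 18.1-fold between mice, from 3.06 CPM in mouse 4 to 55.3 in mouse 1, and the other 6 lay between 4.33 and 20.5 CPM. *Mirg* ranged from 3.86 CPM in mouse 7 to 22.4 CPM in mouse 5, and had at least 10 reads in 0–44.7% of the cells of a mouse. *Snrpn* lay between 1.65 and 3.53 CPM. The order of the mice therefore differed between genes, and only for *Ndn* and *Magel2* was mouse 1 the highest by a wide gap.

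**Figure D2:**
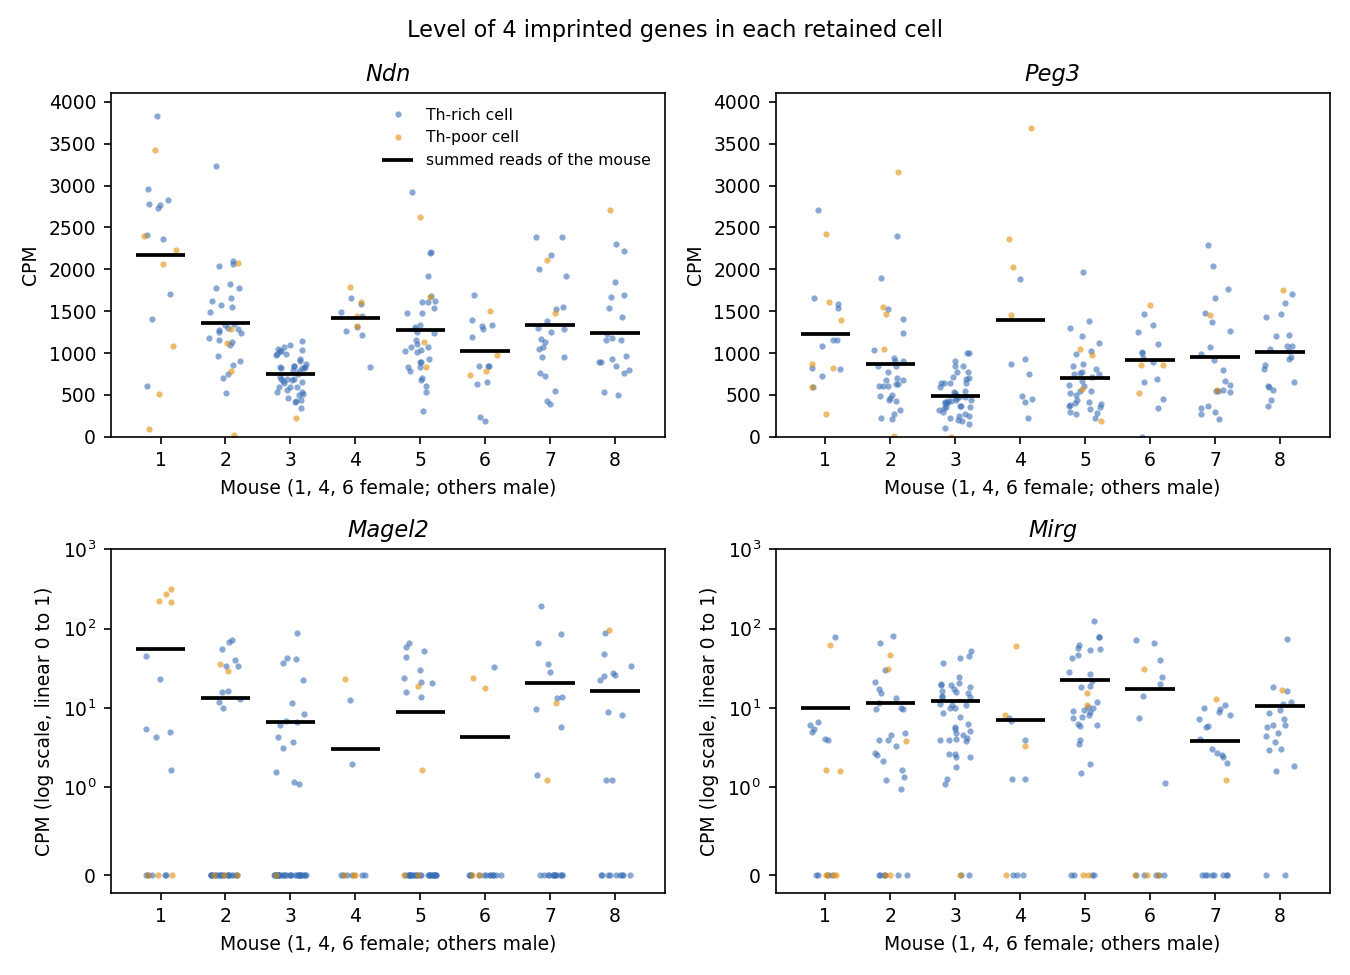
Level of *Ndn*, *Peg3*, *Magel2*, and *Mirg* in CPM in each of the 209 retained cells, by mouse (blue, Th-rich; orange, Th-poor; black bar, CPM of the summed reads of the mouse). *Ndn* and *Peg3* are on a linear axis and the others on a log axis that is linear from 0 to 1. Cells of mouse 3 are low in *Ndn* and *Peg3*, and the 4 highest cells for *Magel2* are Th-poor cells of mouse 1.

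Cells high in *Ndn* tended to be high in *Peg3*, although the genes lie far apart on chromosome 7. Over 209 cells, Spearman's rho of log2(CPM + 1) was 0.39 between them, and 0.27 after each gene was centered on the mean of its mouse. Within single mice it ranged from −0.06 to 0.75, with a median of 0.21, and it was above 0 in 7 of 8 mice. All cells of a mouse share a capture run, and cells that detected more entries had less *Ndn* (rho = −0.35) and less *Peg3* (rho = −0.27); their part in this correlation was not tested. For the neighbors *Ndn* and *Magel2*, rho was 0.27 (0.25 centered), with reads of both in 81 cells. For *Peg3* and *Magel2* rho was 0.18, and with *Mirg* it was −0.02 for *Peg3*, −0.01 for *Ndn*, and 0.06 for *Magel2*. Counts of *Mirg* and *Magel2* were sparse, and nothing is read from these weak values.

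*Usp29*, which is transcribed away from *Peg3* starting 97 bases from it, did not follow *Peg3* over all cells (rho = −0.01), whereas centered on the mouse rho was 0.20, and within single mice it ranged from −0.18 to 0.89. *Usp29* had a median of 295 CPM and at least 10 reads in 203 cells.

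**Figure D3:**
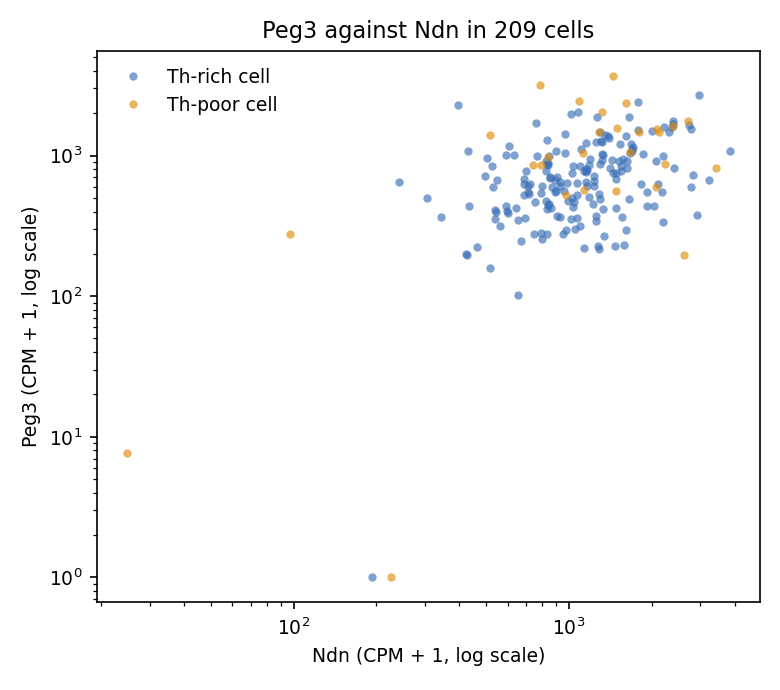
*Peg3* against *Ndn* in each of 209 cells (CPM + 1, both axes log scale; blue, Th-rich; orange, Th-poor). Most cells form one cloud with a rho of 0.39 over all cells, and the 2 cells without reads of *Peg3* and the cell with 23.9 CPM of *Ndn* lie apart from it.

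The genes whose pattern over cells was most like *Peg3*, with each gene centered on its mouse and over the 5284 genes that reached 10 reads in 100 cells or more, were *Ahi1* (rho = 0.48), *Scg2*, which encodes a granin of secretory vesicles (0.41), *Fxyd6* (0.39), and *Mkl2* (0.39), each with a rho above 0 in 8 of 8 mice. For *Ndn* the closest were *Gpx3* (0.46), *Resp18* (0.44), *Caly* (0.43), *Ahi1* (0.43), and *Ly6h* (0.39), each above 0 in 8 of 8 mice. *Ndn* ranked 43rd among the genes like *Peg3*, and *Peg3* 51st among those like *Ndn*. Of 23 other imprinted genes that could be compared, 5 were above the 95th percentile of all genes (0.17) for *Peg3*, with a median rho of 0.07 beside 0.00 over all genes. For *Ndn*, 3 of 23 were above the 95th percentile (0.17), with a median of 0.09 beside 0.01. *Nap1l5*, a paternally expressed nucleosome assembly protein, was high on both lists, with a rho of 0.28 with *Peg3* and 0.31 with *Ndn*, and *Gnas*, the stimulatory G protein locus, had 0.36 with *Ndn* but 0.07 with *Peg3*.

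To ask whether the members differed between Th-poor and Th-rich cells, reads were summed per mouse and class in the 5 mice that had 3 or more cells in both classes. None of the 5 members that passed the filter was called by edgeR (quasi-likelihood test, Benjamini-Hochberg adjusted p under 0.05), and the background was 0.424% of 11323 genes (0.115% higher and 0.309% lower in Th-poor cells). No member had an unadjusted p under 0.05, compared with 1060 of all genes. DESeq2 called none of the 4 others and gave no p for *Magel2*.

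In Th-poor cells *Peg3* was 1179, 1479, 2466, 594, and 1048 CPM in mice 1, 2, 4, 5, and 6, and in Th-rich cells of the same mice 1254, 773, 771, 719.2, and 878 CPM. It was higher in Th-poor cells in 3 mice and lower in 2, and the classes overlapped. The fold was 1.59 (95% interval 0.964–2.62, n = 5 mice, adjusted p = 0.579, edgeR), and the log2 difference fell from 0.67 to 0.33 without mouse 4. *Ndn* was 1715, 1037, 1521, 1796, and 1051 CPM in Th-poor cells and 2429, 1409, 1365, 1226, and 1018 CPM in Th-rich cells, again higher in 3 mice. Its fold of 0.981 had an interval of 0.663–1.45 (adjusted p = 0.992, edgeR), and its sign depended on the setting, with a log2 difference of 0.14 without mouse 1. A difference of *Ndn* beyond these limits was not seen, and a smaller one could not be detected with 5 mice.

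*Magel2* was 140 CPM in Th-poor cells of mouse 1 and 12.2, 4.84, 4.70, and 10.3 CPM in those of mice 2, 4, 5, and 6, compared with 7.72, 13.4, 2.04, 9.26, and 2.23 CPM in their Th-rich cells. The fitted log2 difference was 2.37 ± 1.10 (SE, adjusted p = 0.539, edgeR), and 0.35 without mouse 1, 1.16 with cells from 250000 reads, 1.23 and 1.37 with Th limits of 300 and 2000 CPM, and 1.28 with mouse as a block. In that mouse 4 of the 7 Th-poor cells had 215–318 CPM, the only cells of any mouse above 200 CPM, and the other 3 had 0 reads. Of these 4 cells, the lowest, at 215 CPM, was among the 6 with more glial and vascular than neuronal marker reads. *Mirg* was higher in Th-poor cells in 3 mice and lower in 2 (log2 difference −0.18 ± 0.80, adjusted p = 0.978, edgeR), and its direction turned under several settings, to 0.27 with a Th limit of 300 CPM and 0.29 without mouse 5. *Snrpn* was also higher in 3 of 5 mice (1.52 ± 0.73, adjusted p = 0.561, edgeR) at 0.967–10.0 CPM in Th-poor and 1.35–3.34 CPM in Th-rich cells, and the log2 difference was 0.45 with a Th limit of 300 CPM and 2.52 with at least 5 cells per class (2 mice).

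Other measures moved with these classes. Th-poor cells had a median of 8146 detected entries compared with 9275, and a median summed level of neuronal markers of 4654 CPM (range 4.42–8965) compared with 10360 CPM (range 1192–23530). The vesicular glutamate transporter *Slc17a6* had a median of 501 CPM in Th-poor and 12.3 CPM in Th-rich cells. Their part in the values of the members was not tested. Without the 6 cells rich in glial and vascular markers, the log2 difference was 0.77 for *Peg3* and 0.11 for *Ndn*, and no member was called (edgeR, 93 of all genes called). Among mice sequenced in one lane only, the mean log2 difference of *Peg3* was 0.42 in lane 1 and −0.01 in lane 2 (2 mice each), and mouse 4, in both lanes, had 1.68.

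*Aldh1a7*+ and *Aldh1a7*- cells were compared among Th-rich cells in 7 mice. No member was called by edgeR or DESeq2, beside 0.112% of 12526 genes by edgeR (0.0479% higher and 0.0639% lower in *Aldh1a7*+ cells), and none had an unadjusted p under 0.05, compared with 942 of all genes. *Peg3* was 489, 511.1, 529, 696, 756, 491, and 1026 CPM in *Aldh1a7*+ cells of mice 2 to 8, and 953, 484, 996, 745, 945, 1081, and 974 CPM in their *Aldh1a7*- cells. It was lower in *Aldh1a7*+ cells in 5 of 7 mice, most of all in mice 2, 4, and 7, and the classes overlapped. Its fold was 0.780 (95% interval 0.575–1.06, adjusted p = 0.753, edgeR), and in every alternative its log2 difference stayed below 0 (−0.51 to −0.22, adjusted p 0.388–0.954).

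*Ndn* differed least in the fit, with 735–1451 CPM in *Aldh1a7*+ and 800–1494 CPM in *Aldh1a7*- cells, although it too was lower in 5 of 7 mice. Its fold of 0.987 had an interval of 0.777–1.25 (adjusted p = 0.990, edgeR), the narrowest of any member in any comparison made here. Counts of mice compare plain CPM, whereas folds are fitted after normalization between the sums, and the 2 can differ. *Magel2* was 0–18.2 CPM in *Aldh1a7*+ and 0.357–27.4 CPM in *Aldh1a7*- cells, lower in 5 of 7 mice (log2 difference −1.03 ± 0.86, adjusted p = 0.857, edgeR, and −0.25 with a limit of 50 reads of *Aldh1a7*, 0.26 with 1 read, and −1.73 without mouse 8). *Mirg* was 3.46–17.8 CPM and 1.07–31.2 CPM, also lower in 5 of 7 (−0.67 ± 0.64, adjusted p = 0.889, edgeR, and 0.15 with a limit of 1 read). *Aldh1a7*+ cells had a median of 9779 detected entries and *Aldh1a7*- cells 8838, and at least 10 reads of a GABA neuron marker were found in 2.70% and 33.6% of them, of a glutamate neuron marker in 33.8% and 63.6%, and of an oligodendrocyte marker in 10.8% and 40.2%. Summed neuronal markers had medians of 13300 and 8522 CPM. The part of these in the values was not tested. The mean log2 difference of *Peg3* was −0.44 over the 2 mice of lane 1 and −0.37 over the 4 mice of lane 2.

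**Figure D4:**
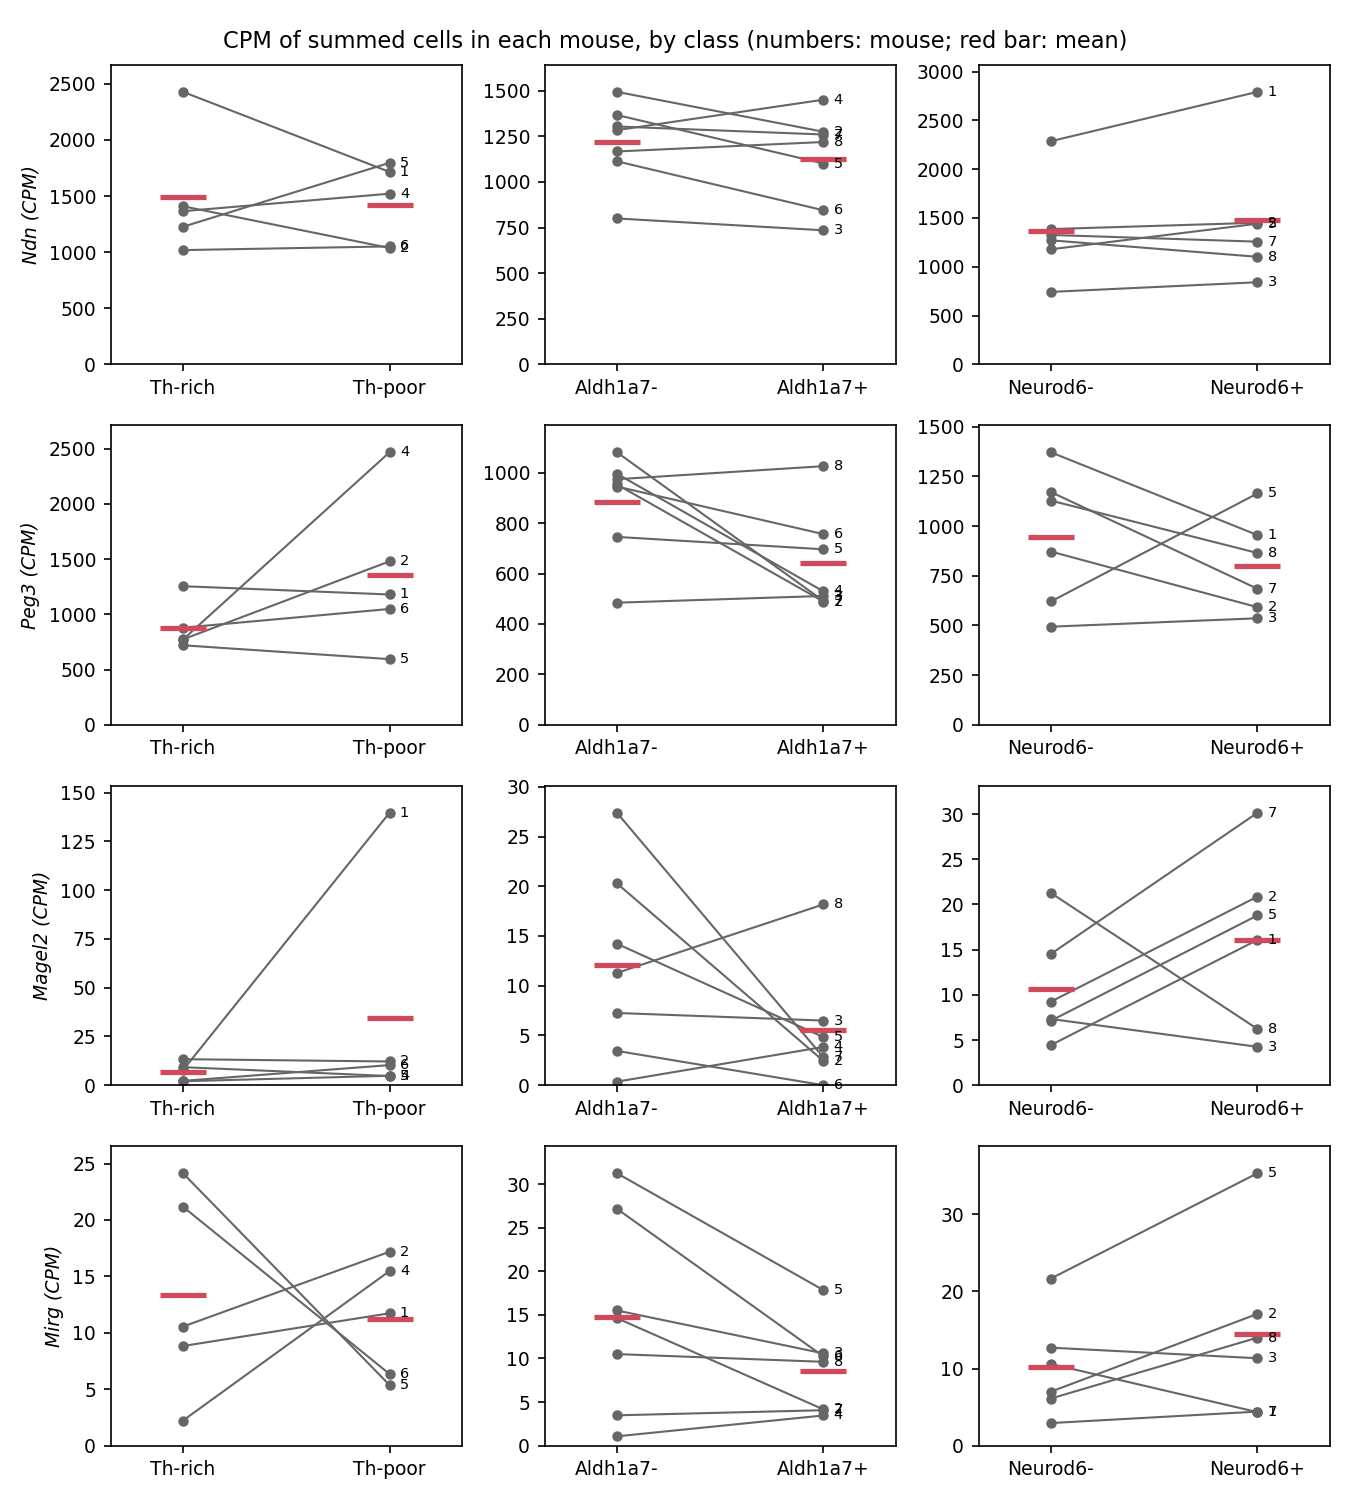
CPM of *Ndn*, *Peg3*, *Magel2*, and *Mirg* (rows) in the summed cells of each mouse, by class (columns; a line joins the classes of 1 mouse, numbers are mice, the red bar is the mean). Lines go both ways in every panel, and *Magel2* in Th-poor cells of mouse 1, at 140 CPM, stands far above the other mice.

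*Neurod6*+ and *Neurod6*- Th-rich cells were compared in 6 mice. No member was called by edgeR or DESeq2 and none had an unadjusted p under 0.05, beside 686 of all genes. The single gene that edgeR called, 0.00807% of 12387, was *Neurod6* itself, by which the cells were divided. *Peg3* was 954, 592, 536, 1164, 684, and 864 CPM in *Neurod6*+ cells of mice 1, 2, 3, 5, 7, and 8, and 1371, 871, 493.4, 620, 1171, and 1128 CPM in their *Neurod6*- cells. It was lower in *Neurod6*+ cells in 4 of 6 mice, and higher in mice 3 and 5. The fold over all 6 was 0.870 (95% interval 0.592–1.28). Its log2 difference of −0.20 was −0.44 without mouse 5 and −0.06 without mouse 7. *Ndn* was 841–2793 CPM in *Neurod6*+ and 742–2287 CPM in *Neurod6*- cells, with a fold of 1.12 (0.731–1.70), and mouse 1 was the highest in both classes. *Magel2* and *Mirg* were each higher in *Neurod6*+ cells in 4 of 6 mice, with folds of 1.54 (0.635–3.72) and 1.48 (0.561–3.88). For *Magel2* the direction turned with a limit of 50 reads of *Neurod6* (log2 difference −0.17) and in all retained cells (−0.33). Adjusted p was 1.0 for all 5 members (edgeR). Glutamate neuron markers had a median summed level of 152 CPM in *Neurod6*+ and 3.85 CPM in *Neurod6*- cells, with at least 10 reads of one in 79.6% and 40.9% of cells, and oligodendrocyte markers were found so in 40.8% and 23.5%. Their part in the values of the members was not tested.

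Between male and female mice, again no member was called by edgeR or DESeq2, and the background of edgeR was 0.0322% of 15529 genes (0.0258% higher and 0.00644% lower in males). *Peg3* alone had an unadjusted p under 0.05, as did 1261 of all genes. *Peg3* was 922–1390 CPM in the 3 females and 490–1018 CPM in the 5 males, with means of 1180 ± 237 and 806 ± 211 CPM (SD), and the sexes overlapped. Its fold in males was 0.691 (95% interval 0.478–0.998, unadjusted p = 0.0492, adjusted p = 0.615, edgeR). The log2 difference of −0.53 was between −0.67 and −0.37 when a mouse was left out, nearest to 0 without mouse 4 (unadjusted p = 0.206, adjusted p = 0.696, edgeR), and −0.43 without mouse 3. The females were 25, 33, and 36 d old and the males 24–28 d, and the part of age was not tested. Within lane 1, females had 1227 and 2121 CPM and males 490 and 864 CPM, and within lane 2 females had 922 and 963 CPM and males 707.5–1018 CPM, counting the cells of mouse 4 in each lane. Th-poor cells made up 15 of the 47 female and 13 of the 162 male cells, and among Th-rich cells alone the log2 difference of *Peg3* was −0.34 (unadjusted p = 0.178, adjusted p = 0.815, edgeR). *Ndn* was 1027–2172 CPM in females and 748–1361 CPM in males, with a fold of 0.787 (0.536–1.16), and its log2 difference moved from −0.35 to −0.05 without mouse 1 and to −0.55 without mouse 6. *Magel2* was 3.06–55.3 CPM in females and 6.64–20.5 CPM in males, and its log2 difference turned from −0.62 to 1.82 without mouse 1 and to 1.66 among Th-rich cells (adjusted p = 0.539 and 0.606, edgeR).

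**Figure D5:**
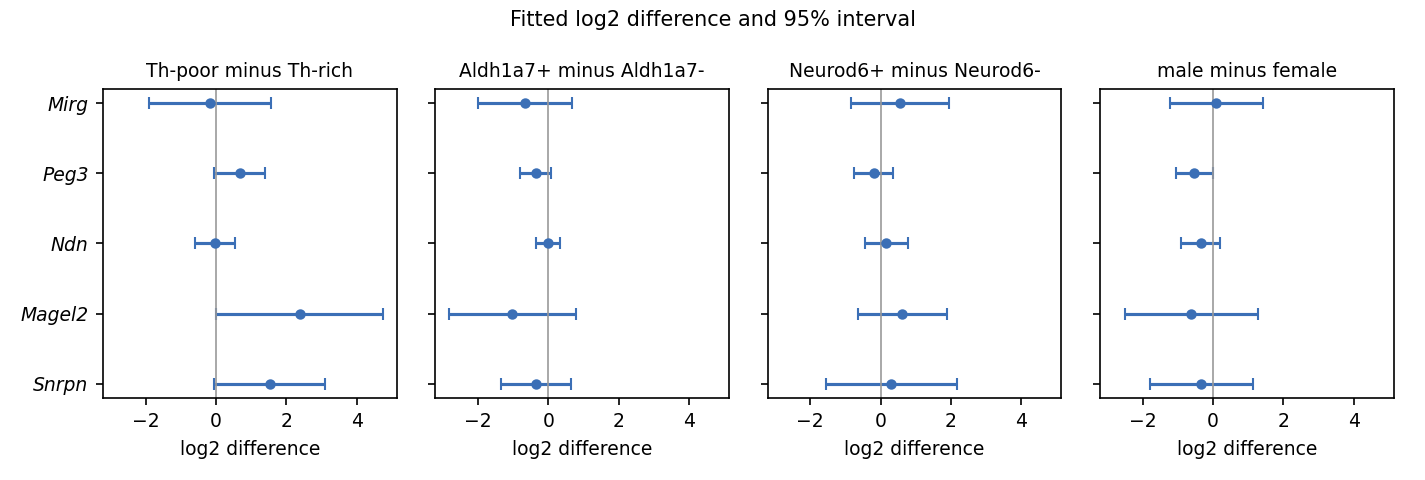
Fitted log2 difference (point) and 95% interval (bar) of each member that passed the filter, in the 4 comparisons (edgeR on reads summed per mouse; 5, 7, 6, and 8 mice from left to right). All intervals include 0 except that of *Peg3* between the sexes, which ends at −0.00, and those of *Ndn* and *Peg3* are narrower than those of *Magel2*, *Mirg*, and *Snrpn*.

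None of the other imprinted genes was called by edgeR either. Of 62 listed, 57 were found in the table and 33–35 passed the filter in each comparison, and unadjusted p was under 0.05 for 2 in Th-poor against Th-rich cells, 3 by *Aldh1a7*, 2 by *Neurod6*, and 4 between the sexes, where the shares over all genes were 9.36%, 7.52%, 5.54%, and 8.12%. DESeq2 called 1 of them, *Kcnk9*, by *Aldh1a7*, and 0 in the other comparisons, giving no adjusted p for 1 gene by Th and 1 by sex. Over all genes DESeq2 called 141 of 12526 by *Aldh1a7*, 366 of 11323 by Th, 110 of 12387 by *Neurod6*, and 190 of 15529 by sex. In Th-poor against Th-rich cells, 27 of 34 had a log2 difference above 0, beside 55.5% of all genes, with a median of 0.43 beside 0.10 over all genes. *Mest*, a paternally expressed hydrolase family member, was at means of 139 and 24.7 CPM (log2 difference 2.53, p = 0.0302, adjusted p = 0.474, edgeR), and *Peg10*, a retrotransposon-derived gene, at 116 and 37.4 CPM (1.70, p = 0.0302, adjusted p = 0.474). In *Aldh1a7*+ against *Aldh1a7*- cells, 11 of 33 were above 0, beside 48.9% of all genes, with a median of −0.19 beside −0.01. The lowest unadjusted p was that of *Kcnk9*, a potassium channel, at means of 0.466 and 6.60 CPM (−3.71, p = 0.00247, adjusted p = 0.295, edgeR). In *Neurod6*+ against *Neurod6*- cells, 15 of 34 were above 0, beside 51.0% of all genes, and the median was −0.04 beside 0.01. *Nap1l5* was at means of 1856 and 1193 CPM (0.68, p = 0.0176, adjusted p = 0.758, edgeR). Between the sexes 11 of 35 were higher in males, beside 51.4% of all genes, with a median of −0.10 beside 0.02.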

How the data were processed

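The members and all gene lists were chosen with earlier results of these data known. The values are counts of reads per gene, deposited by the authors without normalization or pooling. Per the study's methods, alignment was to GRCm38.3 (TopHat2 2.1.1), low-quality reads were removed (Trimmomatic 0.3.2), and featureCounts 1.5.0-p3 with RefSeq transcripts left out chimeric fragments and reads of several genes. Of 47082 entries, 5721 without counts and 94 spike-in and transgene entries (0.00325% of reads) were not used. Mouse, sex, and age come from the labels of each cell, which differ from the design text in the number of females and the age range. Wells with doublets had been excluded by the authors on inspection, and no doublet caller was run.

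Cells with 500000 or more reads on genes were kept. Reads were summed per mouse and class (3 or more cells in each) and compared by the quasi-likelihood test of edgeR 4.0.16 (R 4.3.3; filterByExpr, TMM, no mouse term, Benjamini-Hochberg over all genes, threshold 0.05). Standard errors are the log2 difference over the square root of F. The classes of a mouse come from 1 animal and are paired: after removal of class means, their correlations were 0.0308–0.149 (Th), 0.0559–0.215 (*Aldh1a7*), and 0.0628–0.271 (*Neurod6*). Each mouse was 1 C1 run, so p-values measure the spread between mice and runs together. Alternatives were DESeq2 1.42.0, RLE factors, other filters and class limits, mouse as a block, and leaving out each mouse. Correlations used log2(CPM + 1) (Python 3.11.15, pandas 2.3.3, scipy 1.17.1). Named genes were the members, other imprinted genes past the threshold, and the 5 genes most like *Peg3*, of which 1 is not reported here; since no imprinted gene passed in edgeR and *Dlk1* and *Meg3* could not be read, the genes like *Ndn* and the other imprinted genes with values were added after seeing the data.

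On simulated counts with genes above the median level changed by a log2 difference of 3 (99 genes for Th, 100 in the others), the edgeR fit recovered 66.7% for Th (11323 genes), 92% for *Aldh1a7* (12526), 87% for *Neurod6* (12387), and 78% between the sexes (15529). For 100 genes changed by 1 it recovered 1%, 19%, 15%, and 6%.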

Additional observations from a re-analysis of the deposited data

Results flagged for a closer look

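Mouse 1 stood apart for *Ndn* and *Magel2*. In the summed cells of each of 8 mice, *Ndn* was 2172 CPM in mouse 1 and 748–1422 CPM in the others, and *Magel2* was 55.3 CPM and 3.06–20.5 CPM. The gap was also wide within some classes: *Ndn* was 2429 CPM in Th-rich cells of mouse 1 (1018–1409 CPM in the other 4 mice of that comparison) and 2793 CPM in its *Neurod6*+ cells (841–1451 CPM in the other 5), and *Magel2* was 140 CPM in its Th-poor cells (4.70–12.2 CPM in the other 4). All *Magel2* reads of these Th-poor cells of mouse 1 came from 4 cells, each above 200 CPM. In its Th-rich cells *Magel2* was 7.72 CPM (2.04–13.4 CPM in the other 4). *Ndn* in its Th-poor cells, at 1715 CPM, was below that of mouse 5 (1796 CPM). Mouse 3 stood apart on the low side for *Ndn* among the 5 males, at 748 CPM (1239–1361 CPM in the others). In *Aldh1a7*+ cells *Magel2* was 18.2 CPM in mouse 8 and 0–6.497 CPM in the other 6 mice. In all, 7 of 40 sets of mice held a value this far from the rest by Dixon's rule, the gap to the nearest value over the range. Chance alone gives about 1 in 20 independent sets of normally distributed values. The CPM values were not checked for such a distribution, and no excess is read from the count. The 40 sets also share mice and cells, and 5 of the 7 values are of mouse 1.

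For *Magel2*, the mean log2 difference between Th-poor and Th-rich cells, on the log2(CPM + 1) scale, was 2.25 over the 3 females, each above 0, and −0.49 over the 2 males, each below 0, a gap of 2.74. This difference between the sexes was not tested, and mouse 1 is one of the females.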

How the results depend on the processing

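No member that could be tested was called under the alternatives run. DESeq2 gave no p for *Magel2* by Th, and *Snrpn* did not pass the low-count filter by Th without glial-rich cells. In the 313 values under alternatives, 279 kept direction and side of the threshold, and none passed it. The direction of *Peg3* held in all alternatives of each comparison. The number of genes called depended on the setting. For Th-poor against Th-rich cells it was 48, and 366 with DESeq2, 15 without a low-count filter, 74 with cells from 250000 reads, 0 with at least 5 cells per class (2 mice left), 86 and 37 with limits of 300 and 2000 CPM, 93 without cells rich in glial markers (added after seeing the data), and 3–72 when a mouse was left out (3 without mouse 5, 5 without mouse 6, 12 without mouse 4, 29 without mouse 2, 72 without mouse 1). For *Aldh1a7* it was 14, and 141 with DESeq2, 28 from 250000 reads, 52 in all retained cells, and 8–18 leaving out a mouse (9 without mouse 2, 8 without mouse 5 or mouse 6). For *Neurod6* it was 1, and 110 with DESeq2, 2 without a filter, 4 with at least 5 cells, 5 from 1 read, 4 from 50 reads, 7 in all retained cells, and 1–12 leaving out a mouse (12 without mouse 3, 4 without mouse 1). Between the sexes it was 5, 190 with DESeq2, and 4–5 leaving out a mouse. With mouse as a replicate block, calls were 10, 18, and 2 for Th, *Aldh1a7*, and *Neurod6*, and no call of a member changed.

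Apart from *Magel2* between the sexes (1.66 ± 0.69 in Th-rich cells and 1.82 ± 0.64 without mouse 1, SE), values with a changed sign were smaller than their standard errors. In Th-poor cells, *Ndn* became 0.0537 with DESeq2, 0.0536 with RLE factors, 0.0485 from 250000 reads, 0.0519 at the 300 CPM limit, 0.11 without glial-rich cells, 0.0051 with the replicate block, and −0.19 to 0.14 leaving out a mouse, and *Mirg* became 0.65 with 5 cells, 0.27 at 300 CPM, 0.0716 without glial-rich cells, 0.0235 with the block, and −0.57 to 0.29 leaving out a mouse. In *Aldh1a7*+ cells, *Ndn* became 0.0025 in all retained cells and −0.062 to 0.0105 leaving out a mouse, *Snrpn* 0.0149 with 5 cells and 0.12 from 50 reads, and *Magel2* and *Mirg* 0.26 and 0.15 from 1 read. In *Neurod6*+ cells, *Snrpn* became −0.25 with 5 cells, −0.26 in all cells, −0.0382 with the block, and −0.25 to 0.82 leaving out a mouse, and *Magel2* −0.17 from 50 reads and −0.33 in all cells. In males, *Snrpn* became 0.11 without glial-rich cells, *Magel2* 1.66 in Th-rich cells and −1.11 to 1.82 leaving out a mouse, and *Mirg* −0.21 to 0.55 leaving out a mouse. The cause of these changes was not tested.

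Summing the entries of one symbol (added after the double entries were seen) called no member. The shares of cells with *Snrpn*, *Mirg*, and *Magel2* depended on the read limit, and were 33.0%, 77.5%, and 38.8% from 1 read. With cells thinned to 500000 reads they were 2.39%, 16.7%, and 20.6%. The planned correlations within the *Dlk1*-*Meg3* domain were not run for want of reads.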
